A study of Sus scrofa with 21 samples.

Results

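Interleukins are secreted proteins through which blood and tissue cells signal to each other, and each acts through a receptor built of a ligand-binding chain and, often, a signalling chain that several cytokines share. Most of these receptors pass their signal through JAK kinases and STAT factors, whereas the IL-1 and IL-17 receptor families use adaptor proteins such as MYD88 and TRAF3IP2. In resting blood the receptors are carried by lymphocytes, monocytes and granulocytes, while many of the ligands are made in quantity only after stimulation.

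The genes described here are those whose name on the array begins with IL and a digit, apart from IL1B, IL1RN, IL5RA, IL8 and IL18. They comprised 42 of the 48527 named features of the array, measured by 66 of its 60305 probes. Of these, 23 genes with 34 probes were ligands and 19 genes with 32 probes were receptor chains. The rule used gene names and no measured value.

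Whole blood RNA of SLAdd minipigs (DD pigs), an inbred line kept homozygous at the swine leukocyte antigen (SLA) locus, was compared with that of conventional Large White pigs (LW pigs), which served as controls. All pigs were 60 days old and ate the same type of standard feed without restriction. There was 1 array per pig for 10 DD pigs (5 litters) and 11 LW pigs (6 litters), on 3 chips that each held both breeds. The values are the deposited quantile-normalised log2 intensities, so a difference of 1 is a doubling, and levels are compared between breeds and not between genes. Because whole blood is a mixture, fewer cells of a type and less RNA per cell cannot be told apart in any of the differences below. The breeds also differ in genotype throughout, and a base difference under a probe cannot be told apart from a difference in RNA.

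The DD arrays were dimmer than the LW arrays. The log2 75th percentile of the scanner's processed signal, called brightness below, was 6.56, 7.64 and 8.49 (lowest, median, highest) on the DD arrays and 7.37, 8.41 and 8.62 on the LW arrays. The gap was widest on chip 3, where the breed means were 7.09 and 8.36, and smallest on chip 1, with 7.95 and 8.02. The blood samples carried the red cell gene HBB at log2 levels of 16.83 to 18.09 in DD pigs and 15.52 to 18.10 in LW pigs. Among blood cell markers, 3 of 8 tested T cell genes passed the limma threshold, all lower in DD pigs, where 21% of all features passed in either direction. These were CD3D, CD3G and CD247, with log2 FC of -0.58, -0.64 and -0.63. With brightness in the model they were -0.30, -0.36 and -0.39 and the calls were lost (adjusted p = 0.597, 0.34 and 0.674), as they were without chip 3. In each of the other marker lists at most 1 gene passed. CD163 was lower, as 1 of 5 tested monocyte markers (3 above 0), and PPBP, as 1 of 5 platelet markers (1 above 0). With brightness in the model CD163 lost its call (log2 FC -0.78, limma adjusted p = 0.188), while PPBP kept it (log2 FC -1.94, adjusted p = 0.000357). Without chip 3 both calls were lost (adjusted p = 0.2 and 0.127). GATA2 was higher, as 1 of 4 eosinophil and basophil markers (1 below 0), and EPB42, as 1 of 4 red cell precursor markers (2 below 0). No tested B cell, NK cell or granulocyte marker passed in limma (0 also at an unadjusted p below 0.05). The mean level of the T cell markers ran from 8.95 to 10.12 in DD pigs and from 9.37 to 10.33 in LW pigs.

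Signal over background divided the genes before any comparison of the breeds. A gene was counted on an array when at least 1 of its probes was well above the local background there. By this measure 15 genes were detected on all 21 arrays, 8 on 11 to 20, 7 on 1 to 10 and 12 on none. The receptors were detected more widely than the ligands, with 9 of 19 receptors but 6 of 23 ligands on all arrays, and 1 receptor but 11 ligands on none. An array detected between 18 and 25 of the 42 genes in DD pigs and between 20 and 24 in LW pigs.

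**Figure D1:**
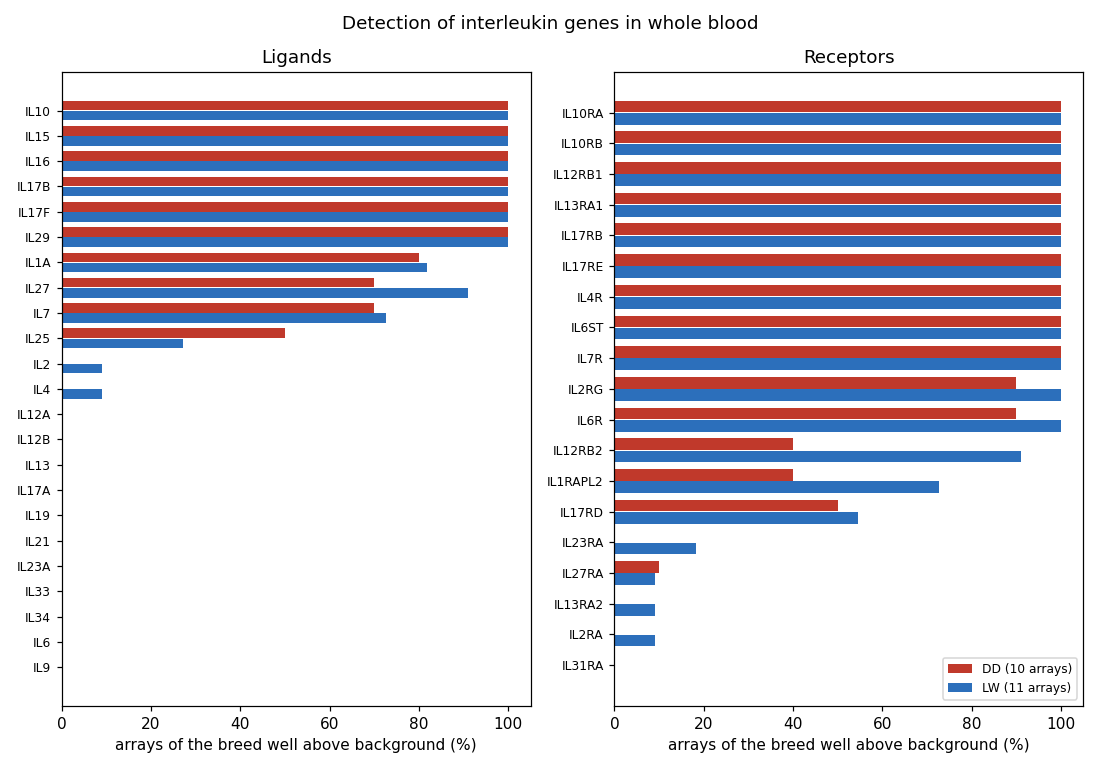
Share of the arrays of each breed (x axis, percent of 10 DD or 11 LW arrays) on which each interleukin ligand (left) or receptor (right) was well above background. The 6 ligands and 9 receptors at the top were detected on all arrays, and 11 ligands and 1 receptor on none.

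The 6 ligands detected on every array were IL10, which restrains inflammatory responses, IL15, a growth factor of NK and memory T cells, IL16, a chemoattractant for CD4+ cells, IL17B and IL17F of the IL-17 family, and IL29, a type III interferon. The receptors on every array were IL4R, IL7R, IL6ST, IL10RA, IL10RB, IL12RB1, IL13RA1, IL17RB and IL17RE. Many classical inflammatory and T helper ligands were near or below background, though not IL17F, detected on every array, or IL1A, detected on 8 DD and 9 LW arrays. IL6, IL9, IL12A, IL12B, IL13, IL17A, IL19, IL21, IL23A, IL33 and IL34 were well above background on no array, and IL2 and IL4 on 1 LW array each. The 2 probes of IL13 have an identical sequence, as do the 2 of IL17A, so each pair is a single measurement. Among receptors, IL31RA was detected on no array, IL2RA and IL13RA2 on 1 LW array, IL23RA on 2 LW arrays, and IL27RA on 1 array of each breed.

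After the 25% of probes with the lowest mean were removed, 30 of the 42 genes were tested, 13 ligands and 17 receptors. The 12 left untested were IL4, IL6, IL9, IL12B, IL13, IL13RA2, IL17A, IL19, IL21, IL23A, IL23RA and IL33. Of the 30, 7 were differentially expressed in limma at an adjusted p below 0.05, which is 23.3% of those tested, beside 21% of all 35578 features (7459 features). The interleukin genes as a group were thus called at a share near that of the whole array. Upregulated in DD pigs were 5 of the 30 tested (IL29, IL25, IL17RE, IL17RB and IL1RAPL2), beside 11.4% of all features, and 2 of the 30 were downregulated (IL15 and IL6R), beside 9.57% of all features. With no sow block 4 of the 7 were called (IL15, IL17RE, IL29 and IL6R). A fit on litter means, which also left out the chip term, called IL6R alone. So did a fit on all 21 arrays with no chip term. Differences were even in direction, 15 above and 15 below 0, with a median log2 FC of 0.02 beside -0.04 over all features.

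**Figure D2:**
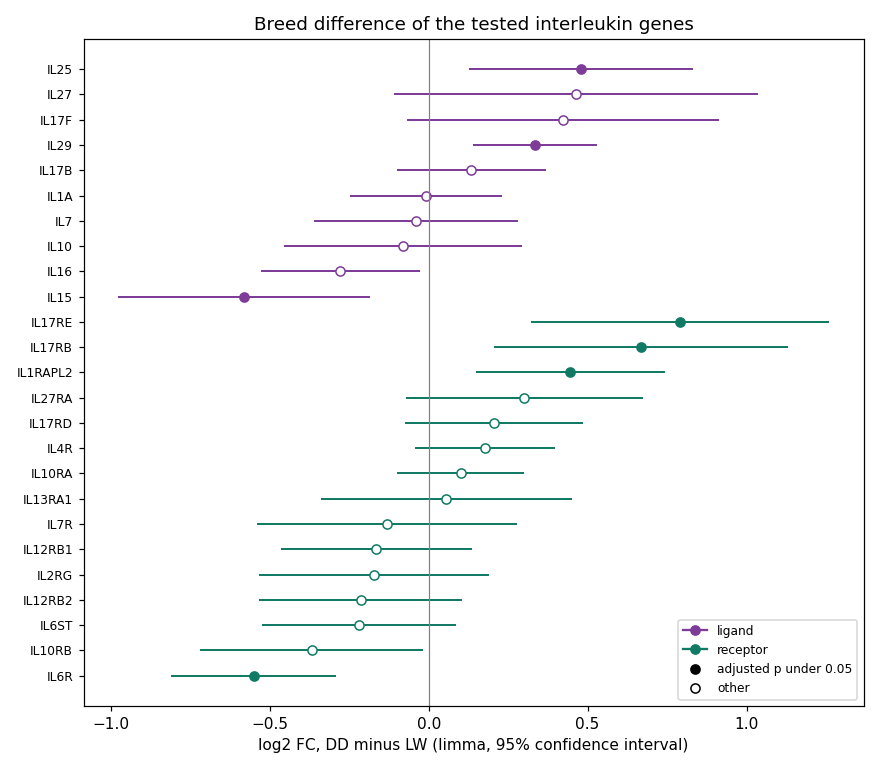
Breed difference (x axis, log2 FC, DD minus LW) with its 95% confidence interval from limma for the 25 tested genes that were well above background on at least 1 array of each breed, ligands above and receptors below. Filled points mark the 7 genes with an adjusted p below 0.05, of which IL15 and IL6R lie below 0 and the other 5 above.

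The probes behind the calls are 60 bases long, and those of 3 genes bear on how the calls can be read. IL6R and IL15 have 3 probes each, of which a pair overlaps, so that their 3 values are not 3 separate measurements of the transcript. The bases shared by the overlapping probes are in capitals, 45 for IL6R and 29 for IL15. For IL17RE, which rests on a single probe, the capitals mark the letters GTGAGT, which also open many introns.
IL6R, A_72_P705280: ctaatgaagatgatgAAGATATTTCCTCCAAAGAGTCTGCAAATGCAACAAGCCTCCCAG
IL6R, A_72_P035481: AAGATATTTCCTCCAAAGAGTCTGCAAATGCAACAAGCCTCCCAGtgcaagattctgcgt
IL6R, A_72_P474892: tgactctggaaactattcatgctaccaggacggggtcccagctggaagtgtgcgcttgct
IL15, O14994: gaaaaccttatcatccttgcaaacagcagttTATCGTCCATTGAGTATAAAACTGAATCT
IL15, A_72_P035856: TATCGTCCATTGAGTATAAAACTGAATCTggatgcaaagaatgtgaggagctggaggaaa
IL15, A_72_P580842: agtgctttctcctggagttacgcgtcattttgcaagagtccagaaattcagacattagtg
IL17RE, O9713: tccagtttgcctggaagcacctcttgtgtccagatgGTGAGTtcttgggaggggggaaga

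The letters GTGAGT occur as written in 1.04% of the 60305 probes and on either strand in 2.18%. Of the 66 interleukin probes, 1 holds them as written, the IL17RE probe shown above, and 3 on either strand. The match is a description of the probe, and whether it reports spliced RNA was not tested.

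**Figure D3:**
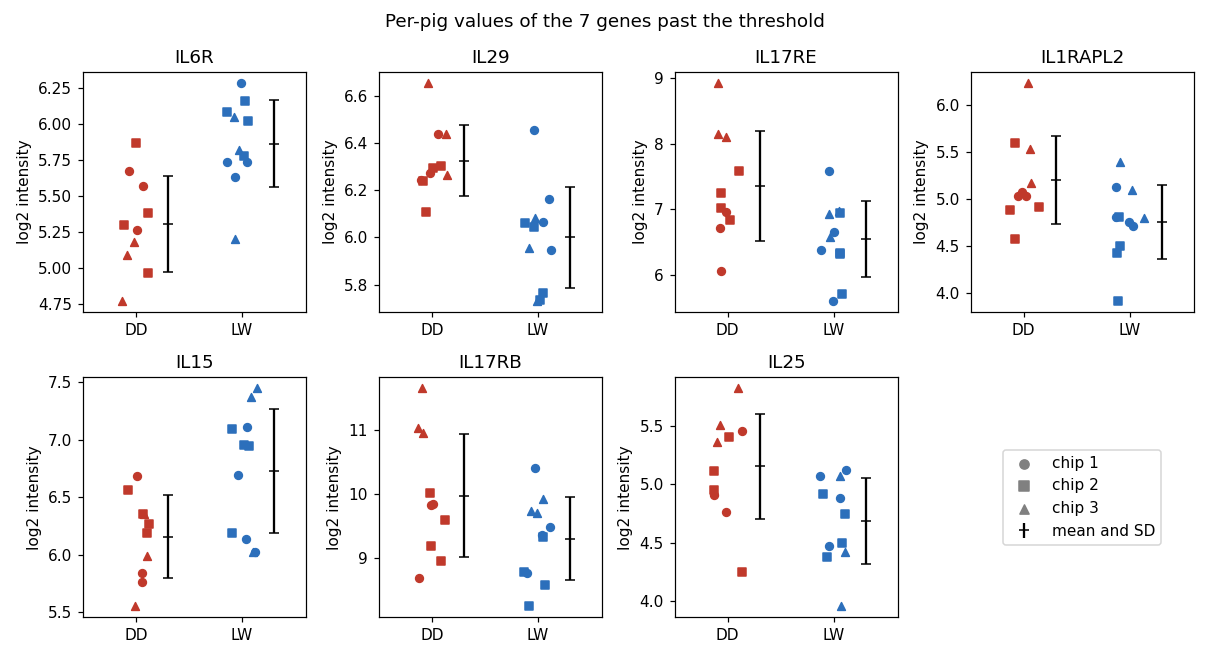
Log2 intensity (y axis) of the 7 differentially expressed interleukin genes in each of the 10 DD and 11 LW pigs, with the marker shape giving the chip and the bar the mean and SD of the breed. The breeds overlap in every gene, and the 3 DD pigs of chip 3 are the highest points for IL17RE and IL17RB.

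IL6R, the ligand-binding chain of the interleukin 6 receptor, was 1.46-fold lower in DD pigs and had the lowest adjusted p of the 42 genes. The gene lies at chr4:95322426-95381393 of Sscrofa11.1 in the RefSeq table. Its lowest, median and highest log2 values were 4.77, 5.28 and 5.86 in DD pigs and 5.20, 5.82 and 6.28 in LW pigs. Of the DD pigs, 4 lay below every LW pig, and 5 LW pigs lay above every DD pig, with the ranges overlapping between. The log2 FC was -0.55 ± 0.12 (SE, n = 10 and 11), with an adjusted p of 0.00656 in limma and a p of 0.00216 in the two-sided exact permutation of litter means, the smallest that dividing the 11 litters into 5 and 6 allows. The difference was -0.34, -0.63 and -0.67 on chips 1, 2 and 3, and the call held whichever animal was left out. Without chip 3 the log2 FC was -0.51 and the adjusted p 0.162.

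All 3 IL6R probes, shown above, were lower in DD pigs. The log2 FC was -0.61 for A_72_P705280 (limma adjusted p = 0.0083 over single probes), -0.68 for A_72_P474892 (adjusted p = 0.00852) and -0.36 for A_72_P035481 (adjusted p = 0.051). The first 2 were well above background on all 11 LW arrays but on 5 and 6 of the 10 DD arrays, so part of their DD values are at background. With brightness as a further covariate the log2 FC of IL6R was -0.42 and its adjusted p 0.236. IL6ST, the signal-transducing chain that IL6R shares with the receptors of related cytokines, was at 6.32, 6.77 and 7.40 in DD pigs and 6.18, 7.26 and 7.37 in LW pigs, with a log2 FC of -0.22 (limma adjusted p = 0.284).

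IL15 was 1.50-fold lower in DD pigs. This cytokine sustains NK cells and memory CD8+ T cells and is presented to them by monocytes and dendritic cells. It lies at chr8:85666963-85740980 of Sscrofa11.1. The log2 values were 5.55, 6.23 and 6.68 in DD pigs and 6.02, 6.95 and 7.45 in LW pigs. All 10 DD pigs were below the LW median and 7 of 11 LW pigs were above every DD pig, but the other 4 LW pigs lay inside the DD range. The log2 FC was -0.58 ± 0.19 (SE, n = 10 and 11), with an adjusted p of 0.0356 in limma and a p of 0.0368 in the exact permutation of litter means.

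The 3 IL15 probes gave log2 FC of -0.68 (O14994, limma adjusted p = 0.0246), -0.54 (A_72_P035856, adjusted p = 0.0471) and -0.53 (A_72_P580842, adjusted p = 0.0541). The third does not overlap the others. On chips 1, 2 and 3 the gene differed by -0.40, -0.45 and -0.98. The call was lost without any 1 of 9 animals (DD_01, DD_08, DD_19, DD_21, DD_23, LW_02, LW_14, LW_18 and LW_22), with adjusted p between 0.0522 and 0.0947, without chip 3 (log2 FC -0.46, adjusted p = 0.404), and with brightness in the model (log2 FC -0.47, adjusted p = 0.526). It was also lost with scaling to the 75th percentile (limma adjusted p = 0.0575), no filter on dim probes (0.0568) and the brightest probe (0.0526). The same held with litter means (0.124) and with no chip term (0.0811). The level of the NK and cytotoxic cell markers ran from 7.95 to 10.02 in DD pigs and from 7.98 to 10.24 in LW pigs, and 0 of 5 passed the limma threshold (0 also before adjustment). That of the T cell markers is given above, and the part of either in the difference in IL15 was not tested.

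IL29, a type III interferon named interferon lambda 1 in humans, was 1.26-fold higher in DD pigs. Type III interferons induce antiviral genes, mainly in epithelial cells and some leukocytes. The gene lies at chr17:51484658-51485233 of Sscrofa11.1. The log2 values were 6.11, 6.28 and 6.65 in DD pigs and 5.73, 6.04 and 6.45 in LW pigs. Of the LW pigs, 9 of 11 lay below every DD pig, and all 10 DD pigs were above the LW median. It had a log2 FC of 0.33 ± 0.09 (SE, n = 10 and 11), the smallest among the 7 called genes, with an adjusted p of 0.0204 in limma and a p of 0.00433 in the exact permutation.

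IL29 was higher in DD pigs on each chip, by 0.16, 0.33 and 0.53. The call was lost only without LW_18 among single animals (adjusted p = 0.0586), and also without chip 2 (log2 FC 0.27, adjusted p = 0.107) or chip 3 (0.25, adjusted p = 0.408). With brightness in the model the log2 FC was 0.25 (adjusted p = 0.38). IL10RB, the chain that type III interferons and IL10 use in common, went the other way. Its log2 values were 6.34, 6.90 and 7.87 in DD pigs and 6.79, 7.58 and 8.01 in LW pigs, with a log2 FC of -0.37 that missed the threshold (limma adjusted p = 0.116).

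The IL-17 family held 3 of the 5 upregulated genes. All 6 of its tested genes lay above 0, with a median log2 FC of 0.45 beside -0.04 for all features, and 3 passed the threshold, IL17RE, IL17RB and IL25, where 21% of all features did. IL17RB, IL17F and IL17B lay below 0 with brightness in the model, at -0.10, -0.31 and -0.084, and none of the family passed. IL25, also called IL-17E, binds IL17RB, which is known from type 2 responses of eosinophils, basophils and lymphoid cells. IL17RE is the binding chain for IL-17C at epithelial surfaces.

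IL17RE was 1.73-fold higher in DD pigs. Its log2 values were 6.07, 7.14 and 8.93 in DD pigs and 5.60, 6.58 and 7.59 in LW pigs. The ranges overlapped, with 3 DD pigs above every LW pig and 9 of 10 above the LW median. Its log2 FC was 0.79 ± 0.22 (SE, n = 10 and 11), the largest of the 30, with an adjusted p of 0.0226 in limma and a p of 0.0108 in the exact permutation. Without DD_21 the log2 FC was 0.68 and without LW_18 it was 0.71, and these were the only single animals without which the call was lost, at adjusted p between 0.0585 and 0.0745.

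IL17RB was 1.59-fold higher, with log2 values of 8.69, 9.84 and 11.66 in DD pigs and 8.24, 9.36 and 10.40 in LW pigs. Again 3 DD pigs exceeded every LW pig, and 7 of 10 were above the LW median. The fitted log2 FC was 0.67 ± 0.22 (SE, n = 10 and 11), with an adjusted p of 0.0378 in limma and a p of 0.0303 in the exact permutation. The call held without any 1 of 8 animals and was lost without any 1 of the other 13 (all but DD_06, DD_11, DD_13, LW_02, LW_04, LW_07, LW_09 and LW_15), with adjusted p up to 0.103. It was also lost with no sow block (adjusted p = 0.0567) and with litter means (adjusted p = 0.198).

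The differences of both receptors were largest on chip 3. DD_19, DD_21 and DD_23 had IL17RE values of 8.10, 8.93 and 8.16 and IL17RB values of 10.96, 11.66 and 11.03, the 3 highest of all 21 pigs for each gene. On chip 1 the breeds differed by 0.03 for IL17RE and -0.055 for IL17RB, on chip 2 by 0.85 and 0.71, and on chip 3 by 1.57 and 1.43. Without chip 3 the log2 FC was 0.46 for IL17RE (limma adjusted p = 0.53) and 0.37 for IL17RB (adjusted p = 0.585), and without chip 2 the calls were also lost, at 0.79 (adjusted p = 0.0635) and 0.66 (adjusted p = 0.0902).

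In each breed the highest value of both receptors fell on the dimmest array, while the other values followed brightness only in part. DD_21 had the dimmest array of the series (6.56) and the highest value of each receptor. LW_07 had the dimmest LW array (7.37) and the highest LW value of each, 7.59 for IL17RE and 10.40 for IL17RB. DD_06 had the brightest DD array (8.49) and the lowest DD value of each. LW_05 had the brightest array of the series (8.62) and the lowest IL17RE value (5.60). In contrast, the lowest IL17RB value (8.24) was that of LW_12 (8.47), while LW_05 was at 8.77. LW_22, among the brightest LW arrays (8.58), had an IL17RE value of 6.98, next below LW_07. DD_19 (7.69) was brighter than DD_10 (7.24) and DD_16 (7.22) but higher for each gene. With brightness in the model the log2 FC of IL17RE was 0.04 (limma adjusted p = 0.992) and that of IL17RB was -0.10 (adjusted p = 0.935), so that no breed difference in either was detectable beside brightness. Breed and brightness were themselves partly confounded and cannot be fully told apart.

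**Figure D4:**
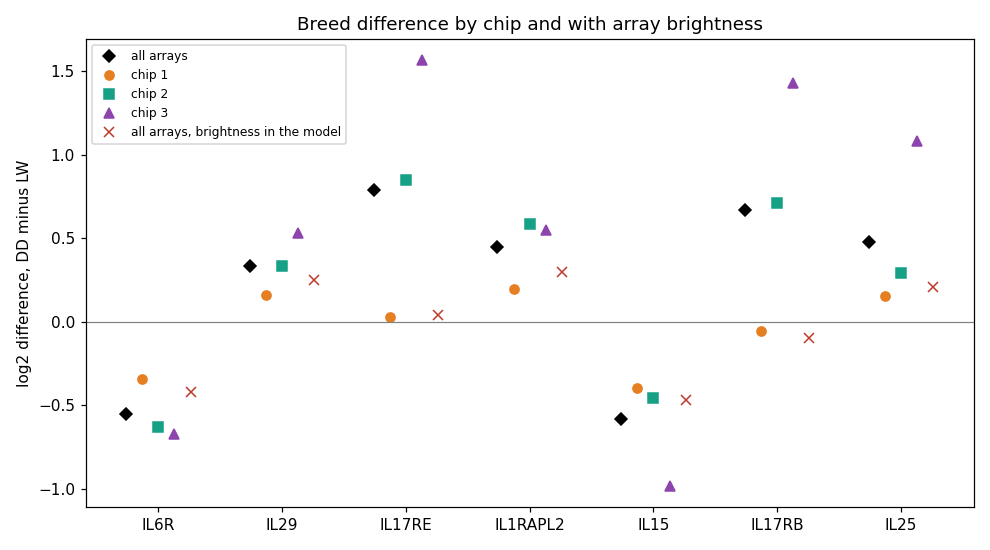
Difference between the breeds (y axis, log2, DD minus LW) of the 7 called genes over all arrays, on each chip alone, and over all arrays with brightness in the model. IL6R and IL15 lie below 0 in all 5 settings, while IL17RE runs from 0.03 on chip 1 to 1.57 on chip 3 and is 0.04 with brightness in the model.

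IL25 was 1.39-fold higher in DD pigs but dim, and well above background on 5 DD and 3 LW arrays. The log2 values were 4.25, 5.24 and 5.83 in DD pigs and 3.96, 4.75 and 5.12 in LW pigs, with 5 DD pigs above every LW pig. Its fitted log2 FC was 0.48 ± 0.17 (SE, n = 10 and 11), with an adjusted p of 0.0473 in limma and a p of 0.0216 in the exact permutation. The differences on chips 1, 2 and 3 were 0.16, 0.29 and 1.08. The call was lost without chip 2 (log2 FC 0.44, adjusted p = 0.128), without chip 3 (0.22, adjusted p = 0.616), with brightness in the model (0.21, adjusted p = 0.863), and without any 1 of 13 animals (all but DD_06, DD_08, DD_11, DD_13, LW_04, LW_07, LW_09 and LW_15). It was also lost with no sow block (adjusted p = 0.0672) and with litter means (adjusted p = 0.163).

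The other 3 tested genes of the family did not pass the threshold. IL17F, a ligand of T helper 17 cells, was at 5.29, 6.42 and 9.03 in DD pigs and 5.35, 6.26 and 7.24 in LW pigs, with a log2 FC of 0.42 (limma adjusted p = 0.196). Its 3 highest values were again those of DD_19, DD_21 and DD_23, at 8.31, 9.03 and 8.40, and with brightness in the model its log2 FC was -0.31 (adjusted p = 0.645). IL17B had a log2 FC of 0.13 (adjusted p = 0.394). IL17RD, an inhibitor of growth factor signalling that also joins IL-17 receptor complexes, had a log2 FC of 0.21 (adjusted p = 0.269) and was well above background on 5 DD and 6 LW arrays.

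IL1RAPL2, an orphan member of the IL-1 receptor family best known from the nervous system, was 1.36-fold higher in DD pigs. The gene lies at chrX:85347867-86464670 of Sscrofa11.1. It was dim, above background on 4 DD and 8 LW arrays, so the breed with the higher values had fewer arrays above background. The log2 values were 4.57, 5.05 and 6.24 in DD pigs and 3.91, 4.79 and 5.40 in LW pigs, with 3 DD pigs above every LW pig. The log2 FC was 0.45 ± 0.14 (SE, n = 10 and 11), with an adjusted p of 0.0326 in limma and a p of 0.00216 in the exact permutation. The call was lost without any 1 of 7 animals (DD_16, DD_19, DD_21, LW_05, LW_14, LW_18 and LW_24), without any 1 of the chips (adjusted p = 0.0518, 0.0694 and 0.356 without chips 1, 2 and 3), with no sow block (adjusted p = 0.0505), with litter means (adjusted p = 0.167), and with brightness in the model (log2 FC 0.30, adjusted p = 0.634).

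IL16 came nearest to the threshold among the 23 genes that did not pass it. It was at 11.74, 12.47 and 13.01 in DD pigs and 12.13, 12.76 and 13.11 in LW pigs, with a log2 FC of -0.28 (limma adjusted p = 0.0945, p = 0.00433 in the exact permutation of litter means). Only DD_21 lay below every LW pig. Differences on chips 1, 2 and 3 were -0.07, -0.18 and -0.65, and with brightness in the model the log2 FC was 0.04 (adjusted p = 0.987).

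The common gamma chain family, which signals through JAK1 and JAK3 and supports lymphocyte survival, had 7 tested genes, of which IL15 alone passed the threshold. IL2RG, the shared chain itself, was at 4.96, 6.43 and 7.47 in DD pigs and 5.76, 6.81 and 7.21 in LW pigs (log2 FC -0.17, limma adjusted p = 0.49). IL7R, which naive and memory T cells carry, was at 5.02, 6.39 and 7.09 in DD pigs and 5.48, 6.60 and 7.54 in LW pigs. Its log2 FC was -0.13, with a 95% interval from -0.54 to 0.27 (adjusted p = 0.658). IL7, its ligand, had a log2 FC of -0.04 (adjusted p = 0.87). IL2RA, the high-affinity chain of the interleukin 2 receptor found on activated and regulatory T cells, was above background only in LW_09, at 7.06, while the other 20 pigs were at 5.05 or below.

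IL4R, the receptor chain for IL4 and IL13, had probes that disagreed. Averaged over its probes it was at 9.80, 10.22 and 10.43 in DD pigs and 9.60, 10.00 and 10.34 in LW pigs, with a log2 FC of 0.18 (limma adjusted p = 0.225). Probe A_72_P088511 alone gave 0.49 (adjusted p = 0.0274), with 8.12, 8.65 and 9.34 in DD pigs and 7.59, 8.11 and 9.00 in LW pigs. Probe A_72_P003526 gave -0.14 (adjusted p = 0.445), with 11.19, 11.68 and 12.10 in DD pigs and 11.37, 11.88 and 12.30 in LW pigs. Both were above background on all 21 arrays, so the average of the gene joined a called and an uncalled probe.

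Of the 43 interleukin probes that passed the filter, 10 were called when probes were fitted singly (23.3%, beside 21.7% of all 45228 probes). More than 1 such probe was available for 10 genes, and in 7 of them all probes lay on the same side of 0. The other 3 were IL4R, IL10 and IL13RA1.

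**Figure D5:**
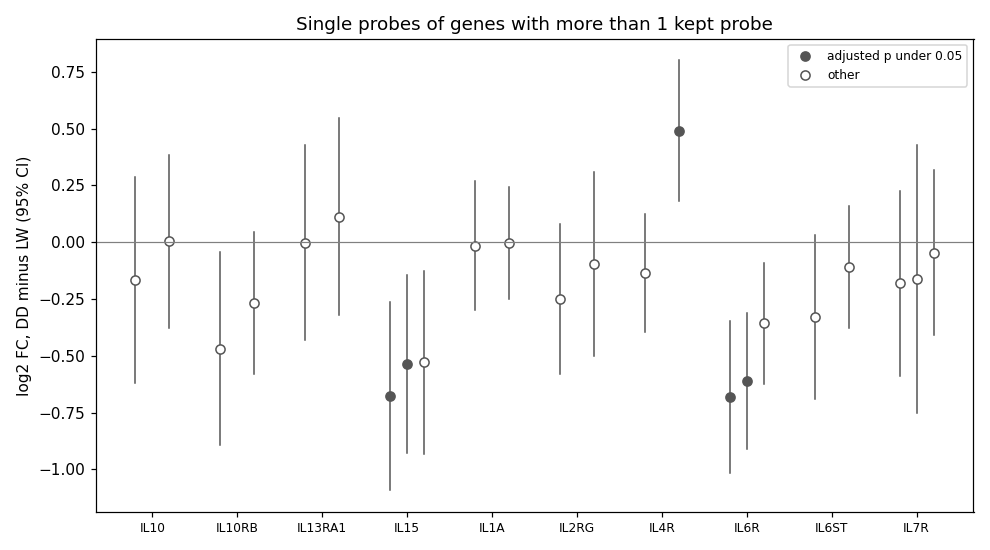
Breed difference (y axis, log2 FC, DD minus LW) of each probe, with its 95% confidence interval from limma, for the 10 genes with more than 1 probe past the filter. The 3 probes of IL6R and of IL15 lie below 0, while the 2 probes of IL4R lie at -0.14 and 0.49.

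Among the remaining genes, the interval of the difference allowed sizeable changes in both directions in some and only small ones in others. IL10 was at 5.83, 6.36 and 7.58 in DD pigs and 5.90, 6.56 and 7.27 in LW pigs, with a log2 FC of -0.08 and a 95% interval from -0.45 to 0.29 (limma adjusted p = 0.769). IL10RA, its binding chain, was at 6.29, 6.99 and 7.23 in DD pigs and 6.58, 6.89 and 7.10 in LW pigs, with an interval from -0.10 to 0.30 (log2 FC 0.10, adjusted p = 0.459). IL13RA1, which pairs with IL4R, had a log2 FC of 0.06 (adjusted p = 0.855) and an interval from -0.34 to 0.45.

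None of the IL-12 and IL-27 genes passed the threshold. IL12RB1, the chain shared by the receptors of IL-12 and IL-23, was at 7.67, 8.32 and 9.33 in DD pigs and 7.86, 8.62 and 9.03 in LW pigs (log2 FC -0.17, limma adjusted p = 0.419). IL12RB2 had a log2 FC of -0.21 (adjusted p = 0.319) and was above background on 4 DD but 10 LW arrays. IL27RA had a log2 FC of 0.30 (adjusted p = 0.227) but was above background on only 1 array of each breed, so this compares mostly background values. IL31RA, on no array above background, is given no fold. IL27, a cytokine of activated myeloid cells, was at 4.52, 5.87 and 7.90 in DD pigs and 4.64, 5.55 and 5.84 in LW pigs, with a log2 FC of 0.46 (adjusted p = 0.226). It was above background on 7 DD and 10 LW arrays, so part of the values are at background. Of the DD pigs, 5 were above every LW pig and 1 was below, and the SD was 0.95 in DD pigs and 0.38 in LW pigs. Without DD_06, the highest at 7.90, the log2 FC was 0.21 (adjusted p = 0.446). IL1A, an alarmin of damaged cells, had a log2 FC of -0.01 and an interval from -0.24 to 0.23 (adjusted p = 0.962).

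Of 34 genes that carry interleukin signals inside the cell, listed from textbook knowledge, 27 were tested. Of these, 3 were upregulated in DD pigs and 2 downregulated, beside 21% of all features in either direction, and the median log2 FC of the list was 0.00. TRAF3IP2, the adaptor Act1 that IL-17 receptors recruit, was at 7.59, 8.50 and 9.26 in DD pigs and 6.79, 7.65 and 8.16 in LW pigs. Of the DD pigs, 7 of 10 lay above every LW pig. Its log2 FC was 0.84 ± 0.21 (SE, n = 10 and 11; limma adjusted p = 0.0112), and with brightness in the model it was 1.16 (adjusted p = 0.0194). Without chip 3 it was 1.11 (adjusted p = 0.0501).

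CSF2RB, the beta chain shared by the receptors of IL-3, IL-5 and GM-CSF, had a log2 FC of 0.63 (limma adjusted p = 0.0244). CISH, a STAT5-induced inhibitor of cytokine signalling, had a log2 FC of 0.81 (adjusted p = 0.0248). With brightness in the model the values were 0.02 and 0.01. IRS1, an adaptor of insulin and IL-4 receptors, was lower by log2 FC -0.61 (adjusted p = 0.0182) and above background on 2 DD and 10 LW arrays, and IRAK2, a kinase below the IL-1 receptor, by -0.34 (adjusted p = 0.0285). These calls were lost too with brightness in the model, at -0.44 (adjusted p = 0.453) and -0.17 (adjusted p = 0.716). JAK1, JAK2, JAK3, TYK2, STAT2, STAT3, STAT4, STAT5A, STAT5B and STAT6 did not pass the threshold, and among them JAK1, at -0.34 (adjusted p = 0.136), was furthest from 0.

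Eosinophils and basophils are among the blood cells known to carry IL17RB. Of 4 tested markers of these cells, 1 passed the threshold, GATA2 (log2 FC 0.71, limma adjusted p = 0.0216), and the median over the 4 was 0.45. The others were CCR3 (log2 FC 0.42), HDC (0.48) and MS4A2 (-0.03). The paper lists eosinophil number among the blood counts that did not differ significantly between the breeds. The mean level of these markers ran from 7.83 to 9.29 in DD pigs and from 7.55 to 8.33 in LW pigs. With brightness in the model GATA2 had a log2 FC of 0.12 (adjusted p = 0.947), CCR3 0.07, HDC -0.13 and MS4A2 0.04. Without chip 3 GATA2 had a log2 FC of 0.51 (limma adjusted p = 0.495). EPB42 of red cell precursors had a log2 FC of 1.06 (adjusted p = 0.0202), and 0.06 with brightness in the model. The part of these cells in the IL-17 receptor values was not tested.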

How the data were processed

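Total RNA of whole blood was labelled with Cy3 and measured on custom Agilent pig arrays in 1 colour. Per the labels and the study's methods, the authors scanned the arrays with Agilent Feature Extraction 10.7.3.1 and deposited each spot's intensity, with its local background and other flags such as well above background. The main values are the log2 matrix deposited by the authors, made by background correction and quantile normalisation. Recomputing it from the intensities gave a correlation of 0.998 to 0.999 per array. No spot was saturated (0).

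Breed came from the labels, and litter and chip from the study's supplementary records of the animals. The 25% of probes with the lowest mean were removed and the kept probes of a name averaged, leaving 35578 features. The limma model held breed and chip, with sow as random block (duplicateCorrelation, consensus correlation -0.108) and Benjamini-Hochberg adjustment over all features and a threshold of 0.05. Litter means, corrected for chip, were compared by an exact two-sided permutation over every division into 5 and 6 litters, computed for the 30 tested genes and not adjusted over them. The chip correction was made once with the observed breeds and not repeated for each division. Exact therefore refers only to the counting of divisions. This permutation and the limma fit on litter means, which held no chip term, rest on the 11 litters. The main limma p-values come from 21 arrays, and with the negative correlation the sow block gave more calls than no block (7459 against 5106 features). The number of arrays limits the precision.

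The genes, families and lists were chosen with earlier results of these data known. Named genes are those past the threshold, those above background on all arrays, and the 5 largest differences in each direction among genes above background on at least 11 arrays. Values of IL1A, IL2RA, IL2RG, IL7, IL12RB2, IL17RD, IL27RA and the 2 probes of IL4R fall outside that rule and were chosen after they were seen. Gene coordinates come from the RefSeq table of Sscrofa11.1, matched by accession for 32 of the 42 genes and by symbol for 10. Of the steps, only the limma fit was tested on simulated data. These had independent noise, no chip, litter or brightness effect, and no estimated sow correlation. The simulation therefore could not show how the calls depend on those effects. Tools were R 4.3.3, limma 3.58.1, statmod 1.5.0, data.table (1.17.8), Python 3.11.15, pandas 2.3.3 and matplotlib 3.10.9.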

Additional observations from a re-analysis of the deposited data

Results flagged for a closer look

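The highest or lowest value of 10 DD pigs was compared with its nearest neighbour by Dixon's test for 19 interleukin genes, and chance alone marks about 1 group in 20. IL12RB1 in DD_11 was at 9.33, apart from the next DD pig at 8.55. IL16 in DD_21, the pig with the dimmest array, was at 11.74, below the next DD pig at 12.40.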

How the results depend on the processing

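The count of interleukin genes called stayed within 1.5 times of 7, from 6 to 7, with the values recomputed from the scanner intensities, with an offset of 50, with scaling to the 75th percentile, with a filter on signal above background, with the brightest probe of a gene, with trend and robust fitting, and without chip 1. It fell to 3 with no filter on dim probes, 4 with no sow block, 1 with litter means, 1 with no chip term, 0 with brightness in the model, 2 without chip 2 and 0 without chip 3. The 1 gene under litter means and under no chip term was IL6R. The fit on litter means held no chip term either, so the 2 settings are not separate in that respect. Among the settings with 6 or 7 calls, the genes were not always the same. An offset of 50 gained IL16 and lost IL1RAPL2, and leaving out chip 1 gained IL17F and lost IL1RAPL2. IL15 was lost with scaling to the 75th percentile and with the brightest probe, and IL25 with the filter on signal above background. For all features the count of 7459 became 4670 with no filter, 969 with litter means, 1929 with no chip term, 780 with brightness and 533 without chip 3. For single interleukin probes the count of 10 became 6 with no filter, 1 with litter means, 3 with no chip term, 0 with brightness, 5 without chip 2 and 0 without chip 3. For signalling genes the count of 5 became 9 with the brightest probe and 1 with litter means, with no chip term, with brightness and without chip 2, and 0 without chip 3. The causes were not tested.

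Leaving out each animal in turn gave 2240 (without LW_18) to 11741 (without DD_06) features, 1 to 9 interleukin genes, 2 to 15 interleukin probes and 1 to 7 signalling genes. IL6R was called in all 21 of these and in 12 of 14 other alternatives, except with brightness in the model and without chip 3 (adjusted p = 0.162). IL17RB reversed to -0.10 with brightness and to -0.055 on chip 1 alone, the first not past the threshold (adjusted p = 0.935) and the second not tested. Scaling to the 75th percentile moved the median log2 FC of all features from -0.04 to 0.06 and the share of called features that were higher in DD pigs from 54.3% to 69.3%, and all 7 called interleukin genes kept their direction. No paired analysis was possible because the breeds share no animal numbers.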
